A study of Arabidopsis thaliana with 9 samples.

Results

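The genes described here are 10 loci of aliphatic glucosinolate synthesis in Arabidopsis thaliana, chosen by locus code, and all 10 were found among the 20777 loci of the deposited table. They are the regulators MYB28 (AT5G61420) and MYB29 (AT5G07690), the chain elongation genes BCAT4 (AT3G19710), MAM1 (AT5G23010) and MAM3 (AT5G23020), the core synthesis genes CYP83A1 (AT4G13770), SOT17 (AT1G18590) and SOT18 (AT1G74090), and the side chain genes FMO GS-OX1 (AT1G65860) and AOP2 (AT4G03060). Their RNA was measured on Affymetrix ATH1 arrays, oligonucleotide arrays of the Arabidopsis genome. The groups were scr-3, a mutant of SCARECROW, shr-5, a mutant of SHORT-ROOT, and wild type (WT), all in the Col-0 ecotype, with 3 biological repeats each. The aerial vegetative tissue came from seedlings at growth stage 1.04, raised in vitro on MS medium at 22 °C with 16 h of light and 8 h of dark. SHORT-ROOT and SCARECROW are GRAS-family transcription factors best known from root patterning, and the study asked how they act on leaf growth. The labels do not say how many plants made up a repeat.

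Aliphatic glucosinolates are sulfur-rich defence compounds of the cabbage family, made from methionine. The methionine side chain is lengthened in the plastid, the core structure is built through an oxime and a thiohydroximate, a sulfate group is added, and the side chain is then modified. MYB28, MYB29 and their relative MYB76 are the transcription factors that activate the genes of this branch, while MYB34, MYB51 and MYB122 act on the indole branch, which starts from tryptophan. Plants short of sulfur are known to lower glucosinolate synthesis, and SDI1 and SDI2, genes induced by low sulfur, are known as repressors of it.

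On the log2 scale of the deposited values, SHR averaged 4.77 ± 0.10 on the shr-5 arrays and 6.66 ± 0.13 on the WT arrays (SD, n = 3 each), and it fell by 1.89 (SE 0.10, limma adjusted p = 2.87e-05). SCR averaged 7.40 ± 0.25 on the scr-3 arrays and 7.97 ± 0.03 on the WT arrays (SD, n = 3 each), a difference of -0.57 that did not pass with all arrays (adjusted p = 0.110) but did without shr-5 replicate 3, the array described next (adjusted p = 0.0391). SCR was also low in shr-5, where it fell by 0.51 with all arrays (adjusted p = 0.0399) and its difference without that array was -0.45 (adjusted p = 0.0547). Where the probes lie relative to either mutation is not stated, so these levels check the labels only in part. One array stood apart: shr-5 replicate 3 had a mean correlation of 0.977 with the other shr-5 arrays over all loci, against 0.984 to 0.996 for every other array with its own group. Tests are given with all 9 arrays, and the value without that array is added where leaving it out changes a call. The 4 mesophyll markers chosen for a tissue check were not analysed here, and 7 other photosynthesis genes, picked in their place after this was seen, lay between 12.82 and 13.87 on every array. The 3 flower markers lay between 3.26 and 4.35 and the 6 root markers between 3.27 and 7.22, and no gene of either list passed in any comparison. In whole shoots, fewer cells that make these transcripts and less transcript per cell cannot be told apart.

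With all 9 arrays, none of the 10 aliphatic genes passed the test over all loci in either mutant. The measured value was below WT for 9 of 10 in each mutant, the exceptions being MYB28 in scr-3 (0.04) and MAM3 in shr-5 (0.19). In scr-3 against WT, 0 of 10 passed (limma adjusted p under 0.05), where 0.366% of all loci did. Before adjustment 1 of 10 had a p under 0.05 there, as did 2283 of all 20777 loci. In shr-5 against WT, 0 of 10 passed, where 8.14% of all loci did. There 8 of 10 had an unadjusted p under 0.05, all of them lower, beside 5113 of all 20777 loci in either direction. The median change of the 10 genes was -0.42 in scr-3 and -0.99 in shr-5, beside 0.005 and -0.012 over all loci. In scr-3 against WT the SE of the 10 genes was between 0.16 and 0.57 with all arrays and between 0.08 and 0.18 without shr-5 replicate 3, since 1 estimate of the spread serves all groups. With that array left out, 3 of 10 fell in scr-3, where 1.31% of all loci fell, and 5 of 10 fell in shr-5, where 5.29% did, and none rose. In that fit the median change was -0.42 in scr-3 and -0.49 in shr-5. Both comparisons use the same WT arrays, so the values of the mutants are set side by side and are not independent of each other.

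**Figure D1:**
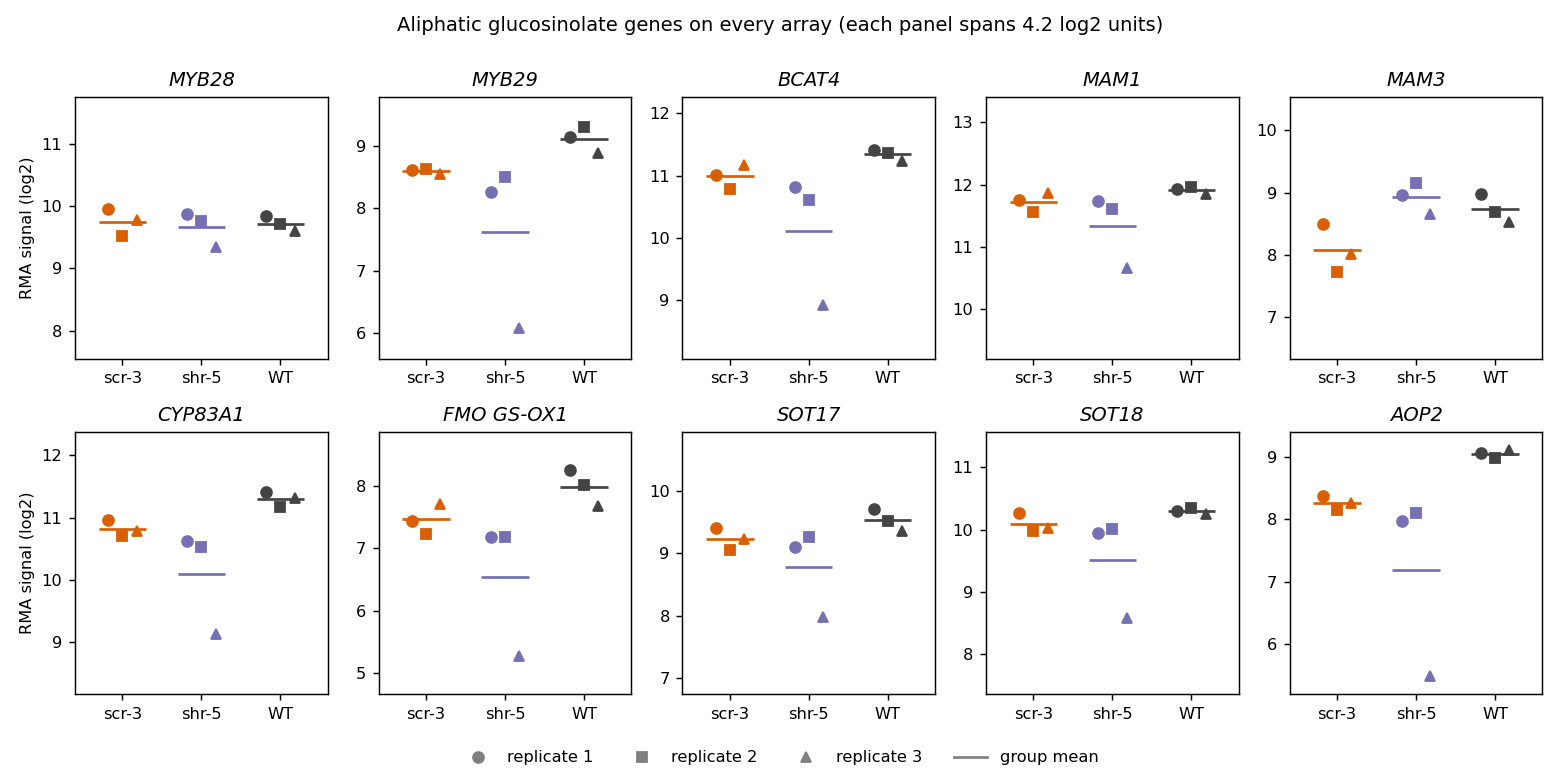
Deposited RMA signal (log2) of the 10 aliphatic glucosinolate genes on each of the 9 arrays, 1 panel per gene, with scr-3, shr-5 and WT from left to right, marker shape giving the replicate and bars the group means. In 8 of the panels shr-5 replicate 3 lies at least 1 log2 unit below the mean of the other shr-5 arrays, while MYB28 and MAM3 move less.

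Among the regulators, MYB29 was low in both mutants and MYB28 was close to its WT level. MYB28, the main activator of the aliphatic genes, had log2 signals of 9.96, 9.52 and 9.77 on the scr-3 arrays, 9.88, 9.76 and 9.35 on the shr-5 arrays, and 9.83, 9.71 and 9.59 on the WT arrays. The 3 groups overlap, and the changes were 0.04 in scr-3 (95% interval -0.32 to 0.39) and -0.05 in shr-5 (-0.40 to 0.30). For MYB29 the signals were 8.61, 8.63 and 8.54 on the scr-3 arrays, 8.27, 8.50 and 6.08 on the shr-5 arrays, and 9.15, 9.31 and 8.90 on the WT arrays. All scr-3 and shr-5 arrays lay below all WT arrays, and the third shr-5 array lay far below the rest. The difference was -0.52 in scr-3 (SE 0.52, adjusted p = 0.803) and -1.50 in shr-5 (SE 0.52, adjusted p = 0.118). With shr-5 replicate 3 left out, MYB29 fell by 0.52 in scr-3 (SE 0.11, adjusted p = 0.0405) and by 0.73 in shr-5 (SE 0.12, adjusted p = 0.00524). MYB76, which lies next to MYB29 in the RefSeq gene order, fell by 0.91 in shr-5 (SE 0.14, adjusted p = 0.00632), a 1.88-fold change. Its signals were 4.57, 4.69 and 4.34 on the shr-5 arrays and 5.56, 5.47 and 5.29 on the WT arrays. MYB76 was thus the 1 regulator of the 3 that passed with all arrays. Its signal was low, below the median of all loci, which was between 6.52 and 6.60 on every array. On shr-5 replicate 3 it was the lowest of the shr-5 arrays but close to the others.

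Of the chain elongation genes, BCAT4 and MAM1 moved alike over the arrays (correlation 0.992), both being lowest on the third shr-5 array. MAM3 did not follow them (correlation -0.07 with BCAT4 and 0.001 with MAM1). BCAT4, the aminotransferase that takes methionine into the pathway, had signals of 11.01, 10.80 and 11.17 on the scr-3 arrays, 10.81, 10.62 and 8.92 on the shr-5 arrays, and 11.42, 11.36 and 11.24 on the WT arrays. All mutant arrays were below all WT arrays. The differences of -0.35 in scr-3 (SE 0.41, adjusted p = 0.840) and -1.23 in shr-5 (SE 0.41, adjusted p = 0.106) did not pass. In the fit of 8 arrays without shr-5 replicate 3, BCAT4 fell by 0.63 in shr-5 (SE 0.12, adjusted p = 0.00898), and its value in scr-3 was still short of the threshold (adjusted p = 0.129).

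MAM1 and MAM3 are neighbouring genes in the RefSeq gene order, and both encode methylthioalkylmalate synthases, which add carbons to the methionine chain. MAM1 signals were 11.76, 11.56 and 11.87 on the scr-3 arrays, 11.73, 11.61 and 10.66 on the shr-5 arrays, and 11.93, 11.96 and 11.85 on the WT arrays. The scr-3 arrays overlapped WT, with a difference of -0.18 (SE 0.24, adjusted p = 0.864). All shr-5 arrays lay below all WT arrays, and the third shr-5 array was clearly lower than the rest. The shr-5 difference of -0.58 (SE 0.24, adjusted p = 0.177) became -0.25 without that array (adjusted p = 0.157).

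MAM3, whose product also makes the longer chains, had the pattern least like the other 9 genes. On the scr-3 arrays its signals were 8.50, 7.73 and 8.01, on the shr-5 arrays 8.95, 9.15 and 8.66, and on the WT arrays 8.97, 8.69 and 8.53. The scr-3 arrays lay below all others, while shr-5 and WT overlap. In scr-3 the difference from WT was -0.65 (SE 0.21, unadjusted p = 0.0113, adjusted p = 0.251), and in shr-5 it was 0.19 (SE 0.21, adjusted p = 0.619). Between the mutants MAM3 was 0.84 higher in shr-5 (SE 0.21, 95% interval 0.38 to 1.31, adjusted p = 0.0835). Without shr-5 replicate 3, that difference was 0.97 and passed (SE 0.21, adjusted p = 0.0386), as the 1 of 10 genes to do so between shr-5 and scr-3. Whether any probe reads both of these related genes was not tested.

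Of the core genes, CYP83A1 was the most clearly lower. CYP83A1, the cytochrome P450 that oxidises the aldoximes made from methionine, had signals of 10.95, 10.71 and 10.78 on the scr-3 arrays, 10.62, 10.53 and 9.13 on the shr-5 arrays, and 11.41, 11.17 and 11.31 on the WT arrays. The groups are ordered without overlap, shr-5 below scr-3 and scr-3 below WT. With all arrays the difference was -0.48 in scr-3 (SE 0.33, adjusted p = 0.677) and -1.20 in shr-5 (SE 0.33, adjusted p = 0.0598). With that array left out, CYP83A1 fell by 0.48 in scr-3 (SE 0.09, adjusted p = 0.0293), a 1.40-fold change, and by 0.72 in shr-5 (SE 0.10, adjusted p = 0.00224), a 1.65-fold change. CYP83A1 also passed in shr-5 without shr-5 replicate 1 (-1.47, adjusted p = 0.0349). That fit keeps the low array and gives it a larger share of the shr-5 mean, so it is no separate check.

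SOT17 and SOT18 encode the sulfotransferases of the last core step, which prefer substrates of the aliphatic branch. SOT17 signals were 9.40, 9.05 and 9.24 on the scr-3 arrays, 9.10, 9.27 and 7.97 on the shr-5 arrays, and 9.72, 9.52 and 9.35 on the WT arrays. SOT18 signals were 10.27, 9.98 and 10.02 on the scr-3 arrays, 9.95, 10.01 and 8.59 on the shr-5 arrays, and 10.30, 10.34 and 10.24 on the WT arrays. For both genes the shr-5 arrays lay below all WT arrays, and the scr-3 arrays overlapped WT. In shr-5 the differences were -0.75 for SOT17 (SE 0.29, adjusted p = 0.156) and -0.78 for SOT18 (SE 0.32, adjusted p = 0.174). Neither passed without shr-5 replicate 3, where they were -0.35 (adjusted p = 0.124) and -0.32 (adjusted p = 0.0706). SOT16, the neighbour of SOT18 that serves mainly the indole branch, differed by -0.19 in each mutant (adjusted p = 0.532 in scr-3 and 0.269 in shr-5).

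Of the 10 genes, AOP2, a side chain gene, differed most from WT in both mutants. FMO GS-OX1, a flavin monooxygenase that turns the methylthio side chain into the methylsulfinyl form, had signals of 7.44, 7.24 and 7.72 on the scr-3 arrays, 7.18, 7.18 and 5.28 on the shr-5 arrays, and 8.25, 8.02 and 7.67 on the WT arrays. The shr-5 arrays lay below WT without overlap, and 1 scr-3 array reached the WT range. The differences were -0.51 in scr-3 (SE 0.45, adjusted p = 0.763) and -1.43 in shr-5 (SE 0.45, adjusted p = 0.0884). In shr-5, FMO GS-OX1 fell by 0.80 in the fit without replicate 3 (SE 0.17, adjusted p = 0.0171).

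AOP2, a gene for a side chain dioxygenase, is classed as a transcribed pseudogene in the RefSeq annotation of this ecotype, so its transcript is read here with no statement about an enzyme. Its signals were 8.37, 8.15 and 8.26 on the scr-3 arrays, 7.97, 8.10 and 5.48 on the shr-5 arrays, and 9.06, 8.98 and 9.11 on the WT arrays. All scr-3 arrays lay below all WT arrays and all shr-5 arrays below all scr-3 arrays, with the third shr-5 array 11.9-fold below the WT mean. In scr-3 the difference was -0.79 (SE 0.57, adjusted p = 0.697), and in shr-5 it was -1.87 (SE 0.57, adjusted p = 0.0827). Without shr-5 replicate 3 the SE dropped to 0.08 in scr-3, and AOP2 fell there by 0.79 (adjusted p = 0.00162), a 1.73-fold change. In shr-5 it then fell by 1.02 (SE 0.09, adjusted p = 1.76e-04), a 2.02-fold change. AOP3, its relative in the same gene cluster, had a low signal of 4.27 to 4.67 on all arrays and differed by 0.10 in scr-3 (adjusted p = 0.794) and -0.07 in shr-5 (adjusted p = 0.699).

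**Figure D2:**
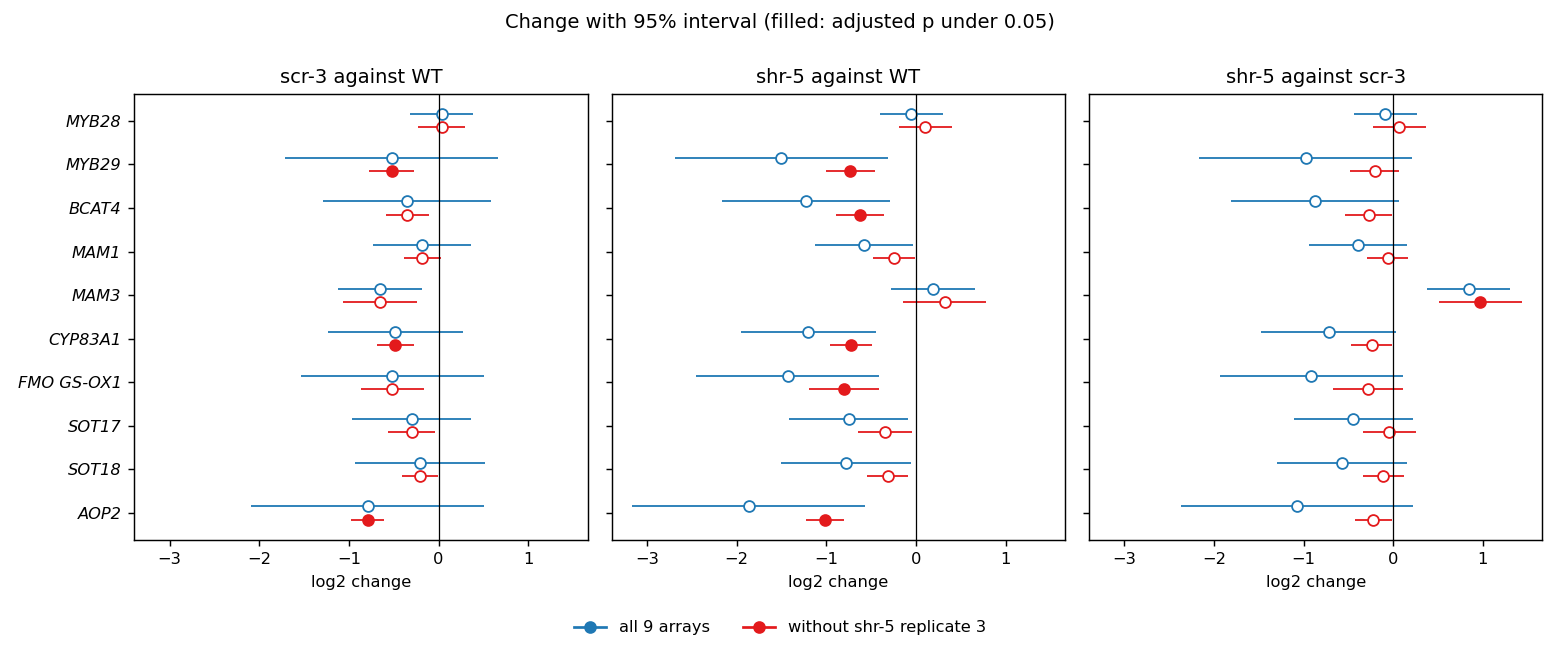
Fitted log2 change of the 10 genes with 95% intervals (horizontal bars) in scr-3 against WT, shr-5 against WT and shr-5 against scr-3, with all 9 arrays (blue) and without shr-5 replicate 3 (red), filled points having an adjusted p under 0.05. All blue points are open, and the red intervals are narrower than the blue ones for all 10 genes, though barely so for MAM3. AOP2 is the lowest point in both comparisons with WT.

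The mutants were also compared directly. In shr-5 against scr-3, 0 of 10 genes passed with all arrays, where 1.34% of all loci did. Before adjustment 1 of the 10 had a p under 0.05, MAM3, as did 3467 of all 20777 loci, and the median change of the 10 genes was -0.65. Without shr-5 replicate 3 the median was -0.16, and MAM3 alone passed, as higher in shr-5, where 1.91% of all loci were. Among the 5 genes that fell in shr-5 in that fit, the differences between the mutants ran from -0.28 to -0.21. For CYP83A1 the difference was -0.24 (95% interval -0.47 to -0.01, adjusted p = 0.252) and for AOP2 it was -0.22 (-0.43 to -0.02, adjusted p = 0.236). A larger fall in shr-5 than in scr-3 was therefore not shown, and these intervals do not show equal levels either.

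Counted over arrays, the direction was shared widely. In scr-3, 5 of 10 genes had all 3 arrays below all WT arrays, beside 10.6% of all loci, and none had all above. In shr-5, 8 of 10 did, beside 15.1% of all loci. In shr-5 against scr-3, 4 of 10 genes were lower without overlap (10.8% of all loci) and 1 was higher (10.2% of all loci). Array by array, the median of the 10 genes relative to the WT mean was -0.28, -0.52 and -0.29 on the scr-3 arrays. It was -0.48, -0.46 and -1.94 on the shr-5 arrays, and 0.10, 0.01 and -0.11 on the WT arrays. The first and second shr-5 arrays thus lie near the scr-3 arrays, and the third lies far below them.

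On shr-5 replicate 3 all 10 genes were lower than on both other shr-5 arrays, a count given without its share over all loci. The gap to the mean of those 2 arrays ran from -0.39 for MAM3 and -0.47 for MYB28 to -2.31 for MYB29 and -2.56 for AOP2. It was at least 1 log2 unit for 8 of the 10 genes, where 2.48% of all loci lay that far below. SHR on that array was 4.89, against 4.70 and 4.73 on the other shr-5 arrays, so the array carried the low SHR level of its label. The part that plant growth, harvest or handling of this repeat had in its values was not tested.

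The rest of the aliphatic pathway was read from a further list of 25 genes, of which 21 were measured. CYP79F1 and CYP79F2, the P450 genes that start the core steps, were not analysed here. In shr-5 against WT 1 of 21 fell with all arrays, MYB76, where 3.79% of all loci fell, and none rose. In scr-3 and between the mutants 0 of 21 passed, beside 0.366% and 1.34% of all loci. Before adjustment, 2 genes in scr-3 and 3 between the mutants had a p under 0.05, beside 2283 and 3467 of all 20777 loci. The median changes were -0.11 in scr-3 and -0.34 in shr-5. Without shr-5 replicate 3, 7 of 21 passed in shr-5, of which 3 rose, where 7.43% of all loci rose, and 4 fell, where 5.29% fell. MYB76 (-0.81), the aminotransferase gene BCAT3 (-0.26), the C-S lyase gene SUR1 (-0.36) and GSL-OH (-0.45), a dioxygenase gene of butenyl glucosinolates, fell. GGP1 (0.56), a gene for the step that trims the glutathione conjugate, FMO GS-OX2 (1.92) and FMO GS-OX4 (1.96) rose. FMO GS-OX2 also rose in scr-3 in that fit, 2.46-fold (adjusted p = 0.0129), as the 1 gene of this list that passed there, where 1.55% of all loci rose. Between the mutants FMO GS-OX4 was higher in shr-5 in that fit, by 1.55 (adjusted p = 0.00796), also as 1 of 21, where 1.91% of all loci were higher. The genes of this paragraph that passed only without shr-5 replicate 3 are named after their values were seen.

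FMO GS-OX1 and FMO GS-OX2, related S-oxygenase genes of the same step, therefore moved in opposite directions in shr-5 once replicate 3 was left out. The FMO GS-OX2 signals were 7.66, 7.04 and 6.87 on the scr-3 arrays, 7.94, 7.68 and 5.32 on the shr-5 arrays, and 6.20, 5.70 and 5.78 on the WT arrays. The third shr-5 array lay below all WT arrays, so the group spans both sides of WT, and with all arrays the change of 1.09 in shr-5 did not pass (SE 0.59, adjusted p = 0.298). FMO GS-OX4 had signals of 8.14, 7.92 and 6.05 on the shr-5 arrays and 6.36, 6.16 and 5.70 on the WT arrays, so that shr-5 replicate 3 lay within the WT range and the others above it.

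**Figure D3:**
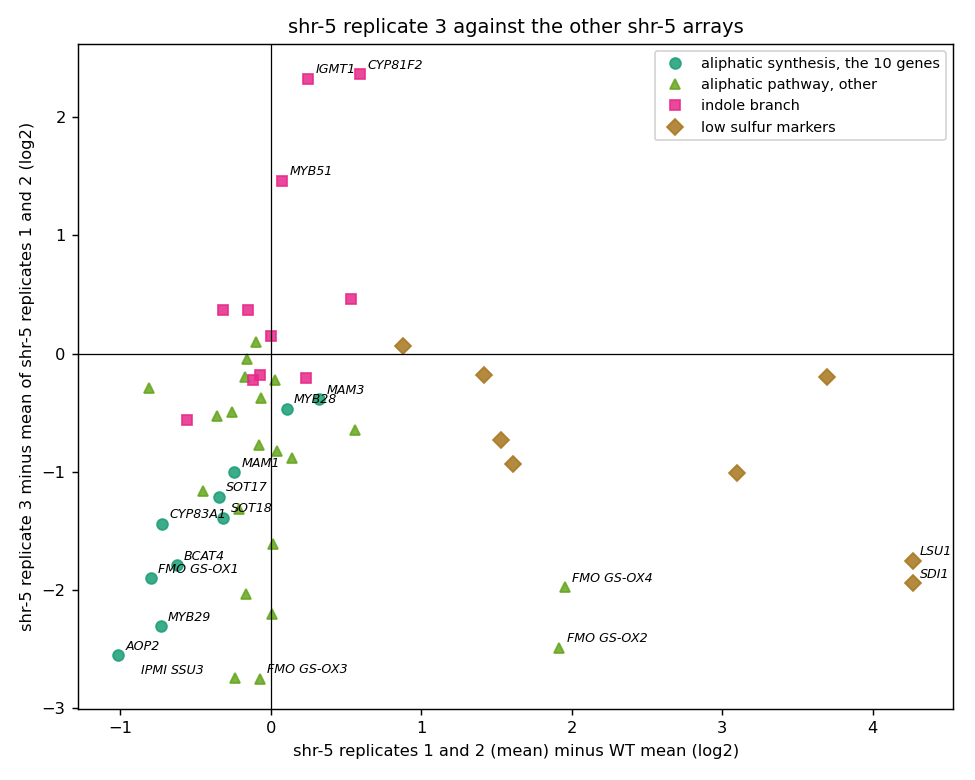
Each point is a gene, with the mean of shr-5 replicates 1 and 2 minus the WT mean on the horizontal axis and shr-5 replicate 3 minus the mean of replicates 1 and 2 on the vertical axis (both log2), coloured by gene group. The 10 aliphatic genes all lie below 0 on the vertical axis, down to -2.56 for AOP2, while the indole branch genes CYP81F2 and IGMT1 lie at 2.36 and 2.33.

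Taken as a list, the indole branch did not share the low level of shr-5 replicate 3. Its genes differed in this, and MYB34 was low there (-0.56 against the mean of the other shr-5 arrays). Of 11 genes, all measured, 0 passed in scr-3 and 2 in shr-5, beside 0.366% and 8.14% of all loci. In scr-3, 2 of the 11 had an unadjusted p under 0.05, as did 2283 of all 20777 loci. In shr-5 MYB34, an activator of this branch, fell by 0.75 (SE 0.17, adjusted p = 0.0315) and GSTF10, a glutathione transferase gene, rose by 0.69 (SE 0.15, adjusted p = 0.0297). The median change was -0.17 in scr-3 and 0.05 in shr-5. CYP83B1, the indole counterpart of CYP83A1, differed by -0.35 in scr-3 (adjusted p = 0.377) and -0.19 in shr-5 (adjusted p = 0.426). On shr-5 replicate 3, 20 of the 21 further aliphatic genes lay below both other shr-5 arrays, but 4 of 11 indole genes lay below and 7 above. The share of all loci below or above both is not given here. The median gap to the mean of those arrays was -0.83 for the 21 genes and 0.37 for the 11, beside 0.013 over all loci. CYP81F2, an indole glucosinolate hydroxylase gene named after its values were seen, was at 7.58 on shr-5 replicate 3, against 5.35 and 5.09 on the other shr-5 arrays and 4.80, 4.49 and 4.60 on the WT arrays.

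Genes induced by low sulfur were higher in both mutants. Of 8 such genes, 6 rose in scr-3 with all arrays, where 0.236% of all loci rose, and all 8 rose in shr-5, where 4.35% did. All 8 rose in each mutant without shr-5 replicate 3, where 1.55% of all loci rose in scr-3 and 7.43% in shr-5. The list was chosen with earlier results of these data known. The repressor gene SDI1 had signals of 9.61, 9.49 and 8.85 on the scr-3 arrays, 10.58, 10.50 and 8.60 on the shr-5 arrays, and 6.78, 5.39 and 6.65 on the WT arrays. All mutant arrays lay above all WT arrays, and SDI1 rose in shr-5 by 3.62 (SE 0.55, adjusted p = 0.00644). In scr-3 its difference of 3.04 did not pass (SE 0.55, adjusted p = 0.0649) but did without shr-5 replicate 3 (adjusted p = 0.00198). SDI2 rose by 0.67 in scr-3 (SE 0.10, adjusted p = 0.0389) and by 0.90 in shr-5 (SE 0.10, adjusted p = 0.00200). LSU1, SHM7 and GGCT2;1 rose in both mutants, by 2.89, 1.07 and 2.25 in scr-3 and by 3.68, 1.36 and 2.76 in shr-5. SULTR4;2 rose 2.46-fold in scr-3 (adjusted p = 0.0291) and 2.43-fold in shr-5 (adjusted p = 0.00545). LSU2 rose 2.46-fold in shr-5 (adjusted p = 0.0176), and its difference of 0.91 on the log2 scale in scr-3 did not pass with all arrays (adjusted p = 0.197) but did without shr-5 replicate 3 (adjusted p = 0.0132). SULTR4;2 is a vacuolar sulfate exporter gene and GGCT2;1 a gene of glutathione breakdown, while BGLU28, which also rose in both, encodes a beta-glucosidase.

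The shr-5 array with the lowest aliphatic signals was not the one with the highest sulfur markers. Whether sulfur supply or these markers had a part in the aliphatic levels was not tested. The median of the 8 sulfur genes over the WT mean was 1.68, 1.96 and 1.69 on the scr-3 arrays, 2.26, 2.45 and 1.66 on the shr-5 arrays, and 0.14, -0.24 and 0.16 on the WT arrays. On shr-5 replicate 3 LSU1 was at 8.19, against 9.93 and 9.96 on the other shr-5 arrays and 5.90, 5.08 and 6.05 on the WT arrays. The 8 genes differed in this: their gaps to the mean of the other shr-5 arrays ran from -1.94 for SDI1 to 0.06 for SDI2. The median gap was -0.83. SLIM1, a transcription factor gene of the low sulfur response, differed by 0.22 in scr-3 (adjusted p = 0.630) and 0.01 in shr-5 (adjusted p = 0.961).

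**Figure D4:**
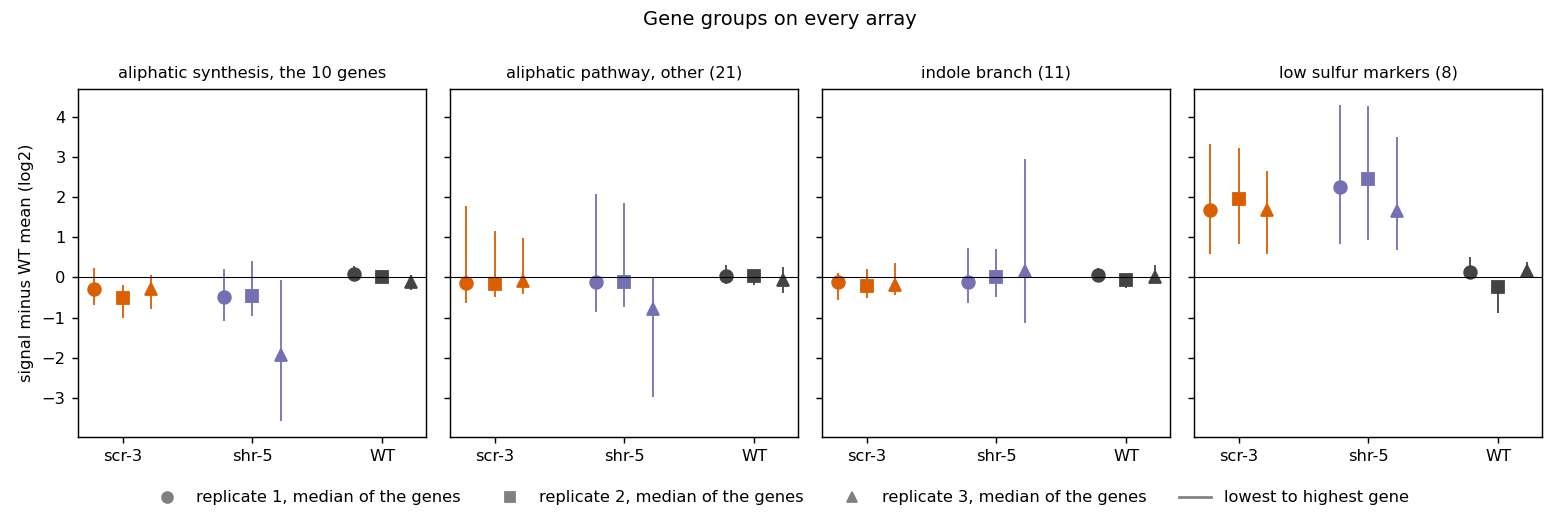
Signal minus the WT mean (log2) on each array for the 10 aliphatic genes, the 21 other measured aliphatic pathway genes, the 11 indole genes and the 8 low sulfur genes, with scr-3, shr-5 and WT from left to right. Markers give the median over genes and vertical lines the lowest to the highest gene; the aliphatic median of shr-5 replicate 3 is -1.94, while its low sulfur median is 1.66.

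The mean profile of the 10 genes over the 9 arrays was compared with every locus that had a symbol and was in no list, by the root-mean-square difference of values centred on each locus's own mean. The 5 closest loci were CB5-C (AT2G46650), a cytochrome b5 gene, at 0.104, NHL1 at 0.146, ACR1 at 0.153, NHL12 at 0.158 and TAT7 at 0.193. CB5-C signals were 9.46, 9.38 and 9.35 on the scr-3 arrays, 9.53, 9.44 and 7.85 on the shr-5 arrays, and 9.82, 9.69 and 9.67 on the WT arrays. This likeness rests largely on the third shr-5 array. Over the 8 arrays without it, CB5-C ranked 32 and NHL1 ranked 12 of 8600 loci, and the other 3 ranked between 175 and 1588. Among the 10 genes themselves, SOT18 (0.114) and SOT17 (0.120) were closest to the mean of the other 9, and MAM3 (0.748) and AOP2 (0.554) were farthest. This measure counts the size of a change as well as its pattern. Over the 9 arrays AOP2 correlated at 0.965 to 0.992 with the other genes except MYB28 (0.588) and MAM3 (0.001). MAM3 correlated at -0.07 to 0.32 with the other 9.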

How the data were processed

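The 9 ATH1 arrays are 3 biological repeats each of scr-3, shr-5 and WT, grouped by the sample titles. The deposited values are log2 signals; the submitters' processing notes name RMA, a method that corrects background, normalises quantiles between arrays and summarises probes. Their span, 2.90 to 14.03, fits a log2 scale. Neither the RMA version nor the mapping of probes to loci is stated. RMA pulls dim signals together, so changes of dim genes can be understated. Precision is limited by having 3 arrays per group.

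The fit used limma 3.58.1 in R 4.3.3, with 1 mean per genotype over all 9 arrays, eBayes, two-sided tests and Benjamini-Hochberg adjustment over all 20777 loci. The threshold was an adjusted p of 0.05, with no filter on dim loci. The procedure was tested on simulated data. Symbols and gene order came from a RefSeq gene table (TAIR10.1), in which all 10 genes matched and AT5G23020 (MAM3) is listed as IMS2.

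Between scr-3 and WT arrays of equal repeat number, deviations from the group means correlated at 0.277, 0.138 and 0.107. The correlations were 0.444, -0.045 and 0.335 between shr-5 and scr-3, and 0.204, -0.106 and 0.099 between shr-5 and WT. Whether arrays of equal repeat number were handled together is not stated in the labels, and these values do not settle it. The alternatives were a fit of the compared groups alone, the replicate number as a block, a common array median, a filter on the lower 40% of loci, an intensity trend, array weights and leaving out each array. The members and lists were chosen with earlier results of these data known. Named are the 10 genes, the genes of the lists that pass against WT, 10 further list genes and the 5 loci closest in profile. The 9 arrays hold no pair of identical columns.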

Additional observations from a re-analysis of the deposited data

Results flagged for a closer look

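The change of BGLU28, a beta-glucosidase gene induced by low sulfur, differed between the mutants: the test of shr-5 against scr-3 gave 1.12 (SE 0.18, limma adjusted p = 0.0244), higher in shr-5. Its signals were 8.99, 8.67 and 8.63 on the shr-5 arrays, 7.76, 7.83 and 7.35 on the scr-3 arrays, and 5.32, 4.79 and 5.29 on the WT arrays. SHR, the mutated gene of shr-5, differed in the same way by -1.51 (SE 0.10, adjusted p = 3.74e-04). Groups of 3 arrays are too small for the outlier test used for larger groups, so shr-5 replicate 3 was not tested as an outlier.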

How the results depend on the processing

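Of 450 alternative values for single aliphatic genes in the 3 comparisons, 432 did not pass, as with all arrays, and 18 passed. With all arrays no value was called, so none could be lost. With arrays of the compared groups alone, 3 of the 10 genes, 1 of the 21 further pathway genes and 577 loci passed in scr-3 against WT, 807 loci in shr-5 against WT and 24 in shr-5 against scr-3. With array weights, 491, 2657 and 594 loci passed in these comparisons, as did 2 of the 10 and 5 of the 21 genes in shr-5 against WT and 1 of the 10 in shr-5 against scr-3. A common median on all arrays let 1 of the 10 (CYP83A1) and 4 of the 21 genes pass in shr-5 against WT, and it changed the split of all loci there to 687 higher and 1279 lower, beside 904 and 787, and in shr-5 against scr-3 to 137 and 231, beside 159 and 120. Over the fits that left out 1 array, the counts in scr-3 against WT were 0 to 3 of the 10, 0 to 1 of the 21 and 17 to 595 loci. In shr-5 against WT they were 0 to 5, 1 to 7 and 654 to 2643, and in shr-5 against scr-3 0 to 1, 0 to 1 and 33 to 610. In each comparison the highest of these counts came without shr-5 replicate 3. In shr-5 against WT, 2 of the 10 genes (BCAT4 and CYP83A1) passed without shr-5 replicate 1, and 2 of the 21 without shr-5 replicate 2. With the replicate number as a block, 52, 1720 and 236 loci passed in the 3 comparisons, no call of the 10 genes changed, and the counts of the 21 stayed as with no block. Except where such a value shows it, the cause of these changes was not tested. With 3 arrays per group, changes in scr-3 near 0.5 on the log2 scale were within reach of the test for some of the 10 genes only after shr-5 replicate 3 was left out.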

Other observations

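Genes of glucosinolate breakdown were read from a list of 7, of which 5 were measured. Of these 5 genes 1 rose in each mutant with all arrays, BGLU28, by 2.51 in scr-3 (SE 0.18, limma adjusted p = 7.37e-04) and 3.63 in shr-5 (SE 0.18, adjusted p = 2.87e-05). Over all loci 0.236% rose in scr-3 and 4.35% in shr-5. The epithiospecifier gene ESP, chosen after its values were seen, averaged 9.36 ± 0.10 on the scr-3 arrays, 8.77 ± 0.65 on the shr-5 arrays and 8.79 ± 0.18 on the WT arrays (SD, n = 3 each). The scr-3 arrays lay above all WT arrays, but with all 9 arrays its change of 0.56 did not pass (adjusted p = 0.498). It passed without shr-5 replicate 3 (SE 0.11, adjusted p = 0.0344), so that 2 of the 5 genes rose in scr-3 in that fit, where 1.55% of all loci rose.

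Among the transcription factors that work with the MYB regulators, MYC3 rose by 0.59 in shr-5 (SE 0.12, adjusted p = 0.0216), while MYC2 and MYC4 were 0.15 and 0.23 higher without passing. With shr-5 replicate 3 left out, MYC4 rose by 0.62 (adjusted p = 0.0158), and MYC2 was 0.61 higher without passing (adjusted p = 0.0609). The vascular genes SUC2, of the phloem, and IRX3, of the secondary wall, were higher in shr-5 by 0.49 (adjusted p = 0.0349) and 0.42 (adjusted p = 0.0465). They were 2 of the 4 measured vascular markers, where 4.35% of all loci rose. Their part in the values of the aliphatic genes was not tested.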
